A study of Mus musculus with 4 samples.

Results

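The interleukin-1 system was described here through 9 genes of the mouse gene table: the agonists Il1a and Il1b, the receptor antagonist Il1rn, the decoy receptor Il1r2, the receptor accessory protein Il1rap, the related cytokine Il18 with its soluble antagonist Il18bp, and Nlrp3 and Casp1, parts of an inflammasome that can mature IL-1β and IL-18. They were taken by name out of 32285 genes, with earlier results of these data known, and all 9 had at least 30 UMIs (unique molecular identifiers, each standing for 1 captured RNA molecule). RNA and surface antibodies were counted in the same single cells of the ankle synovium, the lining tissue of the joint, in 4 droplet libraries (10x Genomics, 3′ ends). Each stage of the disease gave 1 library: baseline on day 0 without treatment, then peak on day 7, plateau on day 14 and resolution on day 56 after serum of K/BxN transgenic mice had been given. All mice were bone marrow chimeras with a CD45.1 B6 donor and a CD45.2 B6 recipient whose ankles had been shielded from irradiation, so that recipient cells could persist in the joint. Clo-lip is written in the titles of all arthritis samples and not at baseline, with no further word on it, so whatever it stands for and the stage cannot be told apart. No source used here says how many mice were pooled, and with 1 library per stage the stages were compared without a test. Intervals given for a stage cover counting error only.

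As background, IL-1α and IL-1β bind the same signalling receptor, which needs the accessory protein IL1RAP to signal through MyD88 to NF-κB. The antagonist IL-1RN occupies the receptor without recruiting IL1RAP, and IL1R2 binds IL-1 but has no signalling tail. IL-1β and IL-18 are made as precursors that caspase-1 cleaves once it is activated on an inflammasome such as the one built by NLRP3, and IL-18BP traps released IL-18. In serum-transfer arthritis IL-1 is known as one of the cytokines that drive joint inflammation. RNA levels say nothing of cleavage or release, which were not measured here.

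Il1a, Il1b and Il1rn all lie on mouse chromosome 2, the agonist genes close together and Il1rn far from both. Their start regions are shown because these 3 genes carry most of what follows. In RefSeq on GRCm38.p6, Il1a lies at chr2:129299609-129310186, Il1b at chr2:129364569-129371164, and Il1rn at chr2:24336860-24351491. The windows hold 250 bases before and 50 after an annotated start, 5′ to 3′ on the gene's strand, with matched motifs in capitals. Il1a and Il1b lie on the minus strand at chr2:129309923-129310222 and chr2:129371090-129371389, and the Il1rn window lies on the plus strand at chr2:24345041-24345340. By these coordinates each of the 3 starts lies inside the annotated gene, and the distances below are from the start of the window's transcript.
Il1a: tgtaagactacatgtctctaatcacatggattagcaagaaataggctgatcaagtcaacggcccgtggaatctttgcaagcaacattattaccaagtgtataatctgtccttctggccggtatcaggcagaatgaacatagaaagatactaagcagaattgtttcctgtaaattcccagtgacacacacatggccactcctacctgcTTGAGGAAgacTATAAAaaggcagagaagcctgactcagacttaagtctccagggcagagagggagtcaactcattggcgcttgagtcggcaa
Il1b: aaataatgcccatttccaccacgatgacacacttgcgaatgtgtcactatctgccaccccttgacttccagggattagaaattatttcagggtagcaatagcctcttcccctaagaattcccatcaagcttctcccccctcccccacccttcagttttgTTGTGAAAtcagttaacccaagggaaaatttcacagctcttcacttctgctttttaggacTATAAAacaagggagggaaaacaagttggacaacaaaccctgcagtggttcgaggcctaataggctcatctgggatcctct
Il1rn: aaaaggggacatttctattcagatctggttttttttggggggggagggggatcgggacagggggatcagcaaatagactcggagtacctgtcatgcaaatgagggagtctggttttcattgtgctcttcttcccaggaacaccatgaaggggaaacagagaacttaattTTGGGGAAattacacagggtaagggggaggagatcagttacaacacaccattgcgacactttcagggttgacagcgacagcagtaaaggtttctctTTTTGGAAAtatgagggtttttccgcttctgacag
A TATA box (TATAAA, searched on the gene's strand) stood 32 bases before the start in Il1a and 31 bases before it in Il1b. The same 6 letters were found in 8.32% of 32851 RefSeq windows of this length, and none of the 3 Il1rn windows held them. A C/EBP motif (TTNNGNAA, both strands, present in 40.7% of windows) began 43 bases before the Il1a start, 91 bases before the Il1b start and 81 bases before the printed Il1rn start. The Il1rn window at the annotated gene start (chr2:24336610-24336909) held no C/EBP match, and the third Il1rn window overlaps the printed one and holds the same matches. In Il1a it overlapped a PU.1 motif (GAGGAA, both strands, in 28.3% of windows) that began 41 bases before the start, and in Il1rn 2 more overlapping C/EBP matches lay just after the start. The κB motif, by name, was found in 4.51% of windows and among the 9 genes in 1 of the 2 Nlrp3 windows; these are matches of letters in short windows and no measure of binding.

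The libraries held 1071 baseline, 5941 peak, 2828 plateau and 4611 resolution cells that showed 300 genes or more and no more than 10% of UMIs from mitochondria, and 11957871 to 58705149 UMIs each. Median UMIs per cell lay between 4912 at resolution and 8250 at peak, so shares of cells with a gene are given after each cell was thinned to 2000 UMIs, which left out 83, 444, 422 and 572 shallower cells from baseline to resolution. The labels describe a sort of CD11b+ cells negative for Ly6G and CD177, both found on neutrophils, for SiglecF, and also for Ly6C, CD64 and MHC class II, yet Fcgr1, the gene of CD64, was found in 7.70% to 65.8% of cells, Ly6c2 in 14.3% to 61.6% and H2-Ab1 in 34.8% to 53.9%. Between 7 and 19 barcodes of a library also occurred in another one. Cells were grouped into 22 clusters without using the 9 genes. Nonclassical and classical monocyte-like, tissue macrophage-like, osteoclast-like, conventional dendritic type 2-like, neutrophil-like, basophil-like, fibroblast-like, NK-like and B-like clusters were named from marker lists, and 8 clusters are called by their leading genes. The NK-like cluster also had the T-cell genes Cd3g, Cd3d, Trbc2 and Trbc1 among its leading genes.

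Levels were taken as counts per 1000000 UMIs of the library (CPM). Il1b, Il1rn and 5 other members (Il1a, Il1r2, Il1rap, Il18 and Il18bp) stood at least 2-fold higher in the peak library than at baseline, and none stood 2-fold lower. The median of the 9 log2 ratios was 1.58, against -0.13 over the 13084 genes compared, of which 8.52% were at least 2-fold higher, 12.6% lower and 21.2% either. Nlrp3 and Casp1, the inflammasome pair, were the members under 2-fold. At plateau 4 members (Il1r2, Il18, Il18bp and Nlrp3) were at least 2-fold lower than at peak and none higher, with a median log2 ratio of -0.74 against 0.30 over all genes, of which 15.1% were higher, 5.07% lower and 20.1% either. Averaging the 14 clusters found in both libraries with equal weight left none of the 4 past 2-fold, so this count changed with the weight given to each cell type. All genes moved likewise: equal weight left 978 of 13501 past 2-fold, 402 of them lower, against 2717 and 684 with library sums. At peak against baseline equal weight left 6 of the 7 members past 2-fold, without Il18. Over all 13084 genes it left 1222 higher and 955 lower, against 1115 and 1655 with library sums. At resolution 3 members (Il1b, Il1rn and Il18bp) were lower than at plateau, with a median of -0.32 against 0.06 over all genes, of which 13.4% were higher, 10.5% lower and 23.8% either. With equal weight the members lower at resolution than at plateau were 4 (Il1rn, Il18bp, Il1r2 and Il1rap), and Il1b was no longer past 2-fold. Of 13291 genes 901 were lower with equal weight, against 1390 with library sums. Against baseline, resolution had Il1a higher and Nlrp3 lower, with a median of -0.24 against 0.18 over all genes, of which 11.8% were higher, 5.61% lower and 17.4% either. The comparisons share libraries, and TMM scaling in place of total UMIs brought the median of all genes to 0.00 at peak against baseline and at resolution against baseline, and to 0.07 at plateau against peak, with the same member counts. With it the split of genes past 2-fold at plateau against peak was 1256 higher and 998 lower, against 2033 higher and 684 lower with total UMIs. At resolution against baseline the TMM split was 1086 higher and 903 lower, against 1491 higher and 710 lower.

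**Figure D1:**
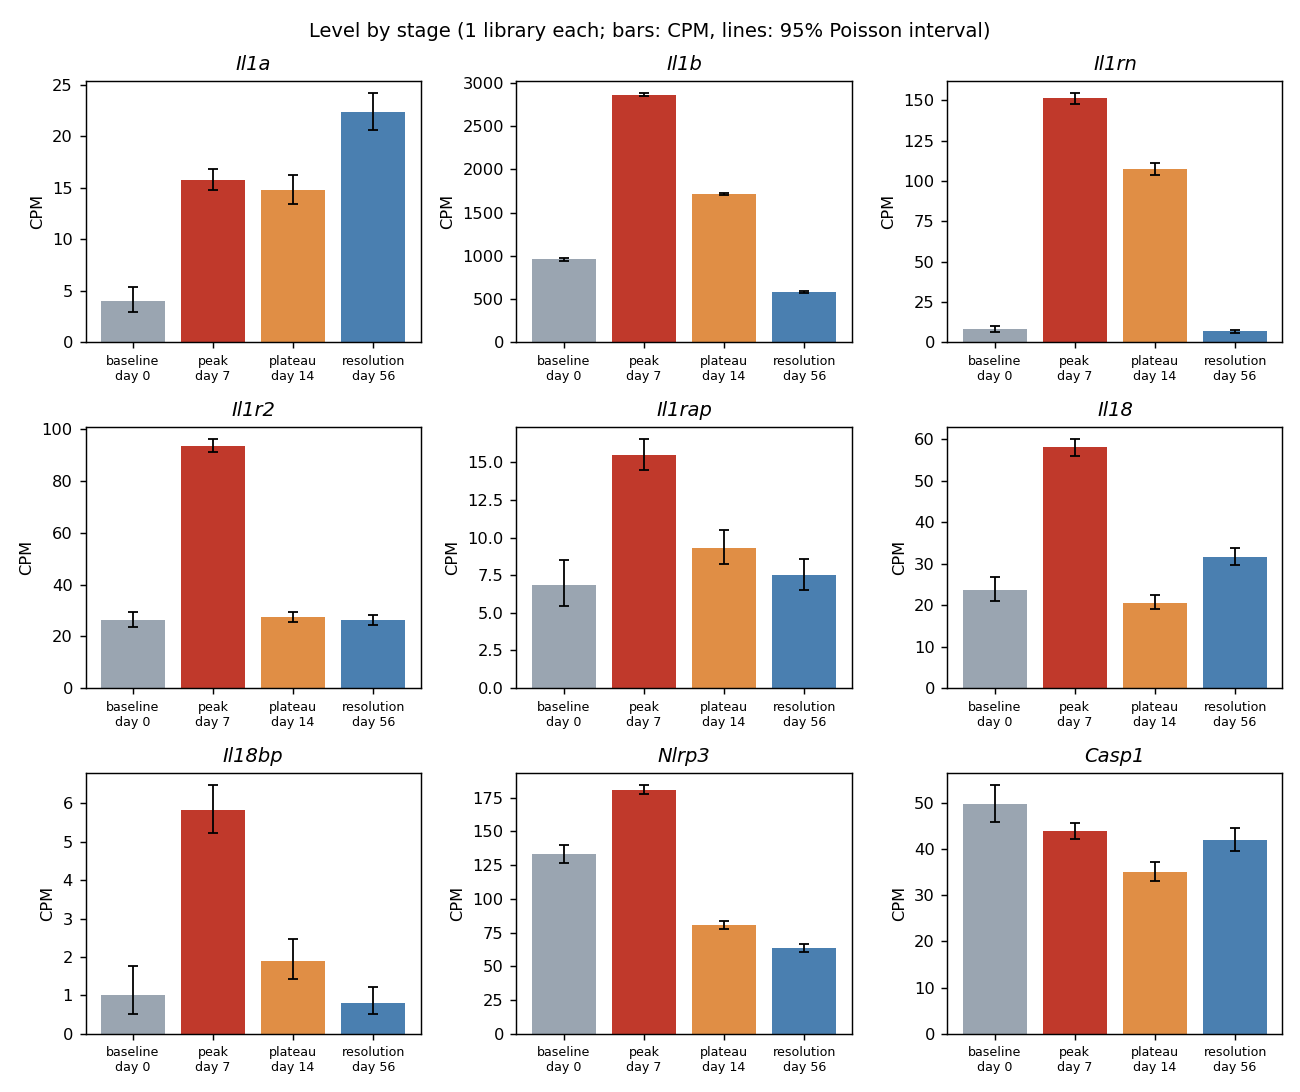
Level of each of the 9 genes in the 4 libraries, in counts per 1000000 UMIs (CPM), 1 library per stage, with lines for the 95% Poisson interval of counting. Il1rn stands at 151 and 107 CPM at peak and plateau and under 9 CPM at baseline and resolution, while Casp1 stays between 35.1 and 49.7 CPM.

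Il1b, the secreted agonist made by activated monocytes and macrophages, had 957 CPM at baseline, 2865 at peak, 1715 at plateau and 581 at resolution. The peak library was the highest and the resolution library the lowest, below baseline too. Peak against baseline was a 3.00-fold ratio (95% counting interval 2.94 to 3.05), and plateau against peak was 0.599-fold (0.593 to 0.605). Resolution against plateau was 0.339-fold (0.333 to 0.345). Over the 10 clusters shared by those libraries, weighted equally, it averaged 644 CPM at resolution and 1224 CPM at plateau (log2 -0.93), which is not past 2-fold. More cells carried the gene and each carried more of it: 48.7%, 71.8%, 50.6% and 27.9% of thinned cells had Il1b from baseline to resolution. A cell with the gene held on average 17.7, 34.9, 30.5 and 10.3 Il1b UMIs in the same order before thinning.

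The cells that held Il1b changed with the stage. At baseline the nonclassical monocyte-like cells of the Serpinb2 cluster held 57.7% of the library's Il1b UMIs, and the nonclassical monocyte-like cells marked by Cd300e and Ace another 12.8%. At peak the largest shares lay in a cluster led by Aif1 and Htr7 (33.4%), one led by Cxcl3 and Cxcl2 (28.0%) and classical monocyte-like cells with interferon-induced genes such as Ifit2 (18.9%). Neither of the first pair of clusters had a baseline cell. The Cxcl3 and Cxcl2 cluster alone held 53.6% at plateau, from 17.7% of the cells. At resolution the Serpinb2 nonclassical monocyte-like cells held 37.0% and a cluster led by Rnase2a and Mmp12 held 30.1%.

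Within clusters the order of stages was partly kept. Nonclassical monocyte-like cells of the Serpinb2 cluster had 1408 CPM of Il1b at baseline, 2761 at peak, 2928 at plateau and 1588 at resolution, so in this cluster the plateau was not below the peak. In the Cxcl3 and Cxcl2 cluster the level was 6969 CPM at plateau, against 5679 CPM at peak. Over the 14 clusters that both libraries held, weighted equally, Il1b averaged 1784 CPM at plateau and 1786 CPM at peak. Over the 7 clusters shared by peak and baseline it averaged 1842 CPM at peak and 699 CPM at baseline. In a sum over a library, more cells of a type and more RNA per cell cannot be told apart.

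Over all 4 libraries Il1b was highest in the Cxcl3 and Cxcl2 cluster with 6091 CPM, found in 87.7% of its thinned cells, followed by the Aif1 and Htr7 cluster with 3822 CPM and interferon-type classical monocyte-like cells with 3160 CPM. Dendritic type 2-like cells had 2434 CPM. Tissue macrophage-like cells were low, with 130 CPM in the Aqp1 and Fxyd2 cluster and 114 CPM in the Vsig4 and Timd4 cluster, and so were osteoclast-like cells, with 83.0 CPM. B-like cells, which should lack the gene, had 23.6 CPM on 2 UMIs (median depth 2275 UMIs). Fibroblast-like cells had 41.2 CPM in the Prg4 cluster and 158 CPM in the Myoc cluster (median depth 8985 and 7700.5 UMIs), the second above both tissue macrophage-like clusters. By stage, fibroblast-like cells had 570 CPM of Il1b at baseline, 115 at peak, 36.8 at plateau and 7.39 at resolution. The 59 NK-like cells had 1698 CPM, with Il1b in 22.4% of those thinned, and at peak 1 lymphoid cell held 46.3% of the lymphoid Il1b UMIs. How far free RNA or doublets add to these levels was not tested.

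**Figure D2:**
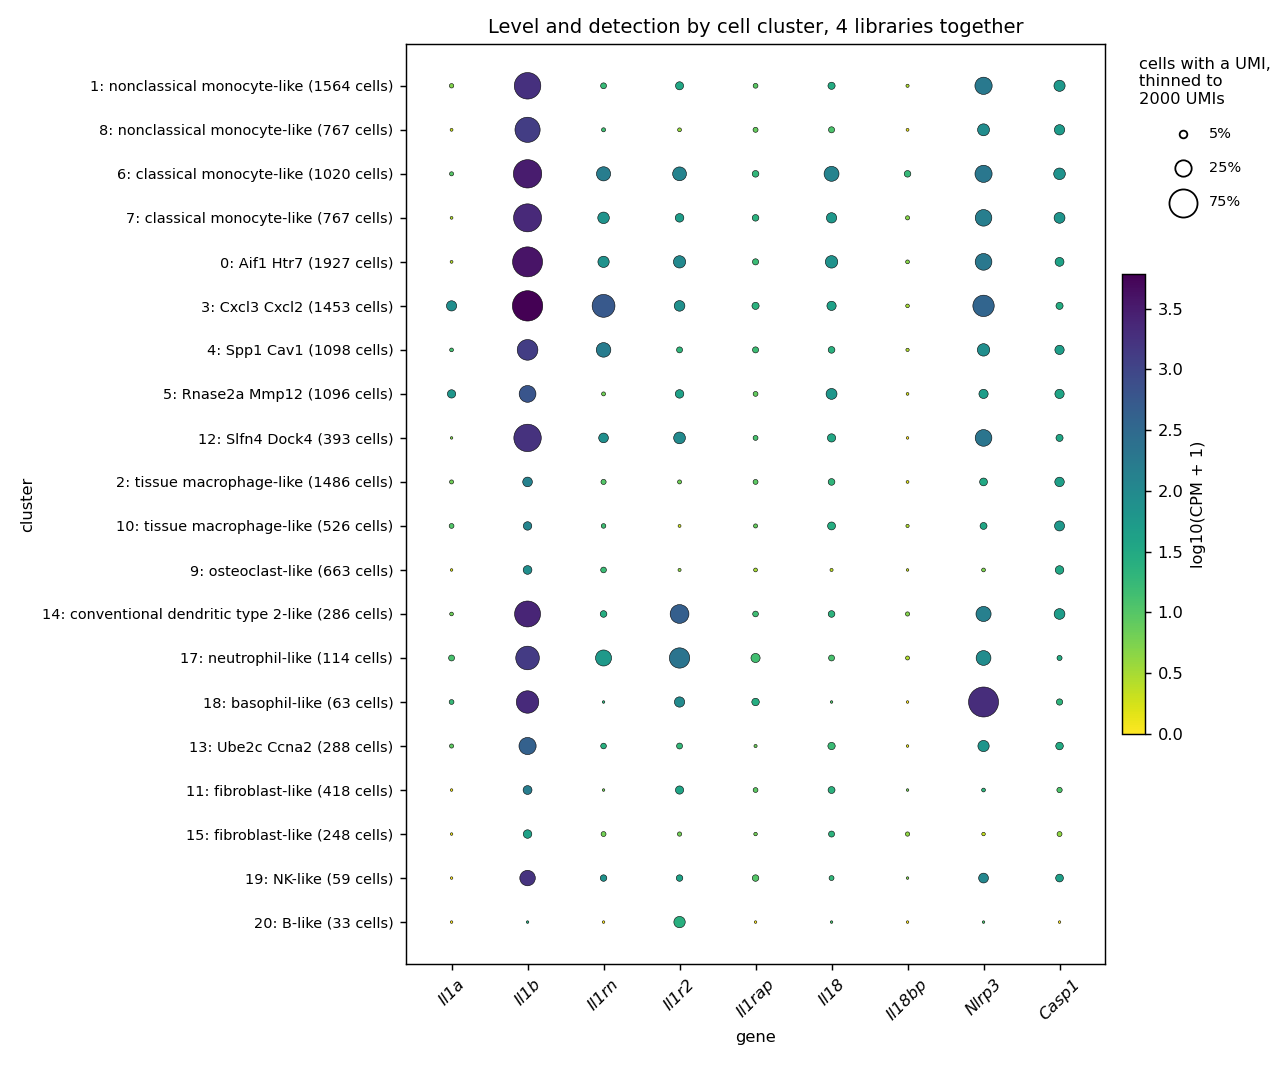
Level and detection of the 9 genes in 20 of the 22 cell clusters over the 4 libraries; colour is log10(CPM + 1) and circle area grows with the share of cells with a UMI after thinning to 2000 UMIs. Il1b is dark in monocyte-like clusters and pale in tissue macrophage-like and osteoclast-like ones, Il1rn is darkest in the Cxcl3 and Cxcl2 cluster, and Nlrp3 in basophil-like cells.

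Il1a, the agonist that is active without caspase cleavage and often acts from the cell surface, was rare. It had 4.01 CPM at baseline, 15.8 at peak, 14.8 at plateau and 22.3 at resolution, and it was the member that was higher at resolution than at peak. Resolution against baseline was 5.56-fold (4.14 to 7.63), or 2.46 on the log2 scale, which was 1.34 with the mean of per-cell CPM and 1.06 with equal cluster weight. Resolution against plateau was 1.51-fold (1.34 to 1.71), a direction that turned with the mean of per-cell CPM (log2 -0.41) and with equal cluster weight (log2 -0.42). The share of thinned cells with Il1a was 0.607% at baseline and 2.00% to 2.20% at the other stages. Its UMIs were concentrated: the 1% of cells with most of it held 57.2% to 64.0% of the library's Il1a UMIs.

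The source of Il1a differed between the arthritis stages and resolution. The Cxcl3 and Cxcl2 cluster held 72.9% of Il1a UMIs at peak and 82.4% at plateau, with 81.5 and 92.3 CPM. That cluster had 2 cells at resolution, where the Rnase2a and Mmp12 cluster held 83.0% of Il1a UMIs at 62.9 CPM. The 31 baseline cells of the Rnase2a and Mmp12 cluster had 29.1 CPM. Most Il1a-positive thinned cells also had Il1b: 104 of 110 at peak, 52 of 53 at plateau and 57 of 89 at resolution. Among all thinned cells, 71.8%, 50.6% and 27.9% had Il1b in the same order.

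Il1rn, the receptor antagonist, showed the largest stage ratios of the 9 genes. The level was 8.03 CPM at baseline, 151 at peak, 107 at plateau and 6.72 at resolution, so baseline and resolution stood close together and both arthritis stages far above them. Peak against baseline was 18.8-fold (15.4 to 23.3), and resolution against plateau was 0.0626-fold (0.0536 to 0.0727). Resolution against baseline was 0.837-fold with an interval that spans 1 (0.650 to 1.08). Detection followed the level, with 1.82%, 18.97%, 16.96% and 1.21% of thinned cells from baseline to resolution.

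The Cxcl3 and Cxcl2 cluster held 54.0% of Il1rn UMIs at peak and 59.7% at plateau. Its cells had 578 CPM at peak and 486 CPM at plateau, above the cluster led by Spp1 and Cav1 with 241 and 119 CPM and interferon-type classical monocyte-like cells with 157 and 187 CPM. Il1rn and Il1a are among the leading genes of the Cxcl3 and Cxcl2 cluster, though neither was used to form it. Stage differences also appeared inside clusters present throughout: Serpinb2 nonclassical monocyte-like cells had 11.3 CPM at baseline, 30.8 at peak, 55.4 at plateau and 8.19 at resolution. Vsig4 and Timd4 tissue macrophage-like cells had 0.975, 76.0, 33.2 and 3.45 CPM in the same order. Each of these 2 clusters was higher at peak and plateau than at baseline and resolution. The Vsig4 and Timd4 values rest on 1, 34 and 7 UMIs at baseline, peak and resolution. At peak the 22 NK-like cells had 96.7 CPM on 18 UMIs, above both clusters, and fibroblast-like cells had 8.33 CPM. How far free RNA or doublets add to these Il1rn levels was not tested. Over the 7 clusters shared by peak and baseline, weighted equally, Il1rn averaged 82.3 CPM at peak and 9.61 CPM at baseline.

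**Figure D3:**
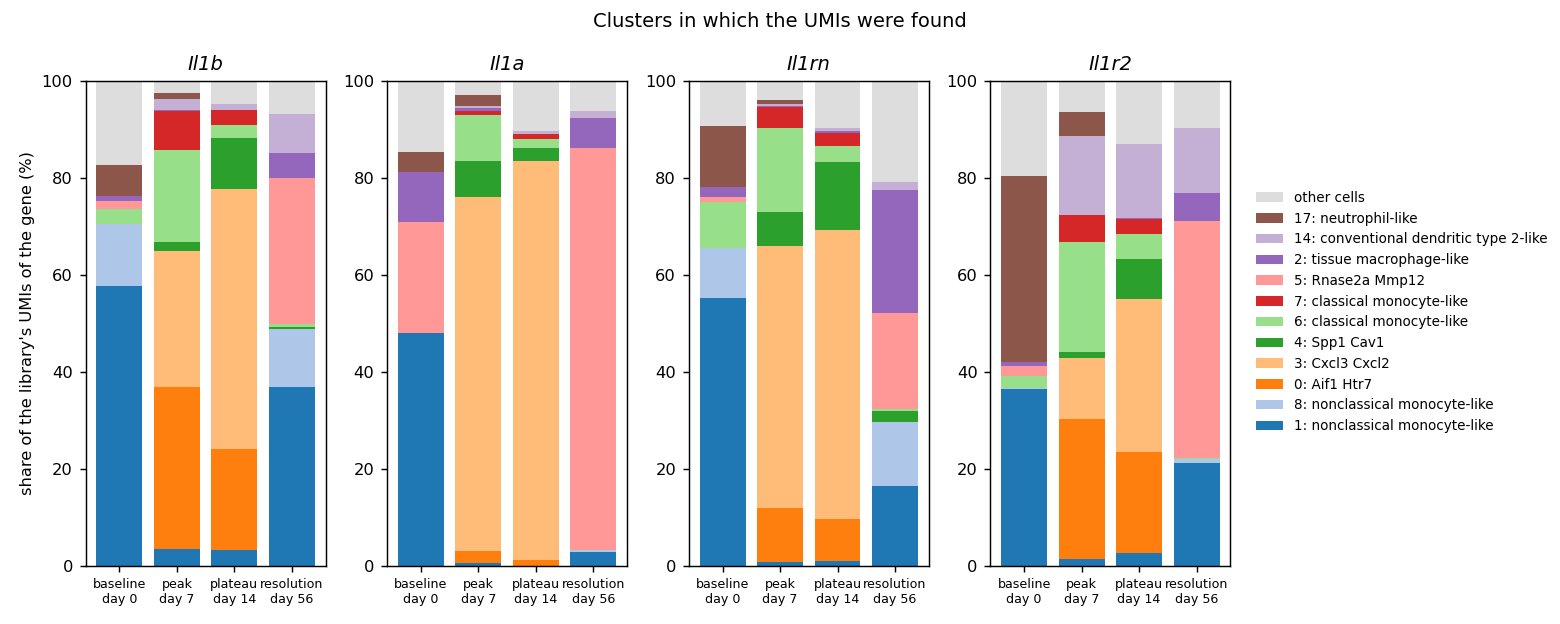
Share of each library's UMIs of Il1b, Il1a, Il1rn and Il1r2 (%) by the cluster of the cell, 1 bar per stage. The Cxcl3 and Cxcl2 cluster (light orange) makes up 72.9% and 82.4% of Il1a at peak and plateau, and the Rnase2a and Mmp12 cluster (pink) 83.0% at resolution.

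Antagonist and agonist RNA were set against each other within libraries. Per 1000 Il1b UMIs the baseline library held 8.39 Il1rn UMIs (6.79 to 10.3) and the peak library 52.8 (51.7 to 53.9). The plateau library held 62.6 (60.3 to 64.8) and the resolution library 11.6 (9.93 to 13.4). The 2 arthritis stages thus stood apart from baseline and resolution beyond counting error. Clusters differed in this ratio more than the stages did: at peak it was 203 in the Spp1 and Cav1 cluster, 102 in the Cxcl3 and Cxcl2 cluster and 17.8 in the Aif1 and Htr7 cluster. In the Spp1 and Cav1 cluster it was 83.2 at plateau, and in the Cxcl3 and Cxcl2 cluster 69.8.

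Cells with both Il1b and Il1rn were common in the arthritis libraries and rare otherwise. After thinning, 0.911% of baseline cells had both (exact binomial interval 0.417 to 1.72) and 15.1% of peak cells (14.1 to 16.0). The share was 13.2% in the plateau library (11.9 to 14.6) and 0.545% in the resolution library (0.342 to 0.824). Without thinning the shares were 5.32%, 31.9%, 23.6% and 1.28%. The product of the 2 single shares, which is what unrelated detection would give, was 0.887%, 13.6%, 8.58% and 0.338%. Il1rn was found in 21.0% of cells with Il1b and 13.9% of cells without it at peak, and in 26.1% and 7.58% at plateau.

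Inside clusters the share with both was near that product in some and above it in others. In the Cxcl3 and Cxcl2 cluster 43.4% of cells had both at peak, against a product of 43.2%, and 41.5% at plateau against 43.3%. In the Aif1 and Htr7 cluster at peak it was 10.1% against 9.93%, and in interferon-type classical monocyte-like cells 14.5% against 14.7%. In the Spp1 and Cav1 cluster it was 13.2% against 11.6% at peak and 7.87% against 6.03% at plateau. Il1a and Il1rn also met in the same cells, in 65 of 110 Il1a-positive cells at peak and 29 of 53 at plateau, against 1 of 89 at resolution. Among all thinned cells, 18.97%, 16.96% and 1.21% had Il1rn in the same order. Cells are not replicates, so these counts carry no test.

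**Figure D4:**
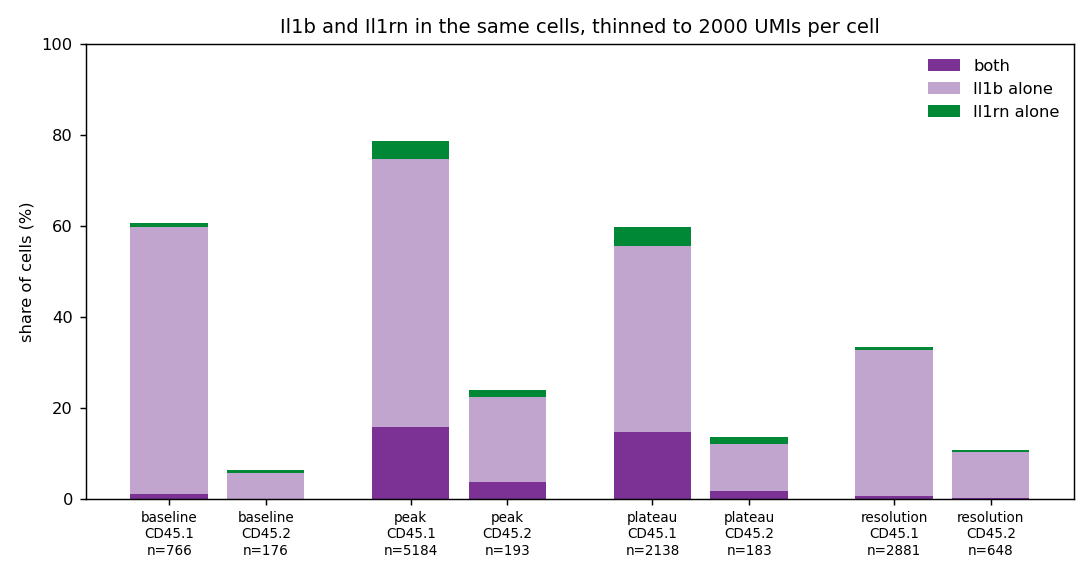
Share of cells (%) with both Il1b and Il1rn, Il1b alone or Il1rn alone after thinning to 2000 UMIs, in CD45.1 and CD45.2 cells of each library (n is the number of cells). Both genes were found in 15.7% of CD45.1 cells at peak and 14.7% at plateau, and in 3.63% and 1.64% of CD45.2 cells.

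Il1r2, the decoy receptor, had 26.4 CPM at baseline, 93.7 at peak, 27.3 at plateau and 26.2 at resolution, so the peak library stood alone. Peak against baseline was 3.54-fold (3.17 to 3.98) and plateau against peak 0.291-fold (0.270 to 0.314). With equal cluster weight resolution was also below plateau, at 29.0 against 65.1 CPM (log2 -1.16). Dendritic type 2-like cells had the highest level over all libraries, 450 CPM, then neutrophil-like cells with 212 CPM and interferon-type classical monocyte-like cells with 122 CPM. Neutrophils are known for IL1R2, and although the labelled gate should exclude them, 58 neutrophil-like cells of the baseline library held 38.3% of its Il1r2 UMIs. All 10 neutrophil markers were detected in each library, with a summed level of 41870 CPM at baseline and 332 to 1659 CPM later. The 38 neutrophil-like cells at peak and the 58 at baseline differed in several members: Il1r2 had 781 CPM at peak and 75.7 CPM at baseline, Il1b 5644 and 450 CPM, and Il1rn 215 and 7.503 CPM. Without neutrophil-like cells the log2 ratio of peak against baseline was 2.25, against 1.82 with them. At resolution the Rnase2a and Mmp12 cluster held 48.8% of Il1r2 UMIs.

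Il1rap, the shared co-receptor, was low at every stage, with 6.86 CPM at baseline, 15.5 at peak, 9.33 at plateau and 7.49 at resolution. Its peak was 2.26-fold above baseline (1.80 to 2.87), and the neighbouring levels of resolution and baseline did not differ beyond counting error. With equal cluster weight it averaged 5.66 CPM at resolution and 13.3 CPM at plateau (log2 -1.23). No cluster dominated it: at peak the Aif1 and Htr7 cluster held 24.1%, interferon-type classical monocyte-like cells 20.8% and the Cxcl3 and Cxcl2 cluster 19.8%.

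Il18, a cytokine that with IL-12 raises interferon-γ, had 23.8 CPM at baseline, 58.0 at peak, 20.6 at plateau and 31.7 at resolution. Peak against baseline was 2.44-fold (2.16 to 2.77), plateau against peak 0.355-fold (0.325 to 0.387) and resolution against plateau 1.54-fold (1.39 to 1.71), though -0.56 on the log2 scale with equal cluster weight. That weighting also brought Il18 to 43.0 CPM at peak and 30.7 CPM at baseline (log2 0.48), which is not past 2-fold. At peak interferon-type classical monocyte-like cells held 36.5% of the Il18 UMIs at 128 CPM, and the Aif1 and Htr7 cluster 31.6% at 74.1 CPM. At resolution the Rnase2a and Mmp12 cluster held 56.5% at 60.8 CPM. Il18bp was scarce, with 1.00 CPM at baseline, 5.83 at peak, 1.89 at plateau and 0.812 at resolution (12, 342, 56 and 22 UMIs). Peak against baseline was 5.80-fold with a wide interval (3.28 to 11.4). Interferon-type classical monocyte-like cells held 51.2% of the Il18bp UMIs at peak, as they did the largest share of Il18.

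Nlrp3, the inflammasome sensor, had 133 CPM at baseline, 181 at peak, 80.5 at plateau and 63.8 at resolution. Its ratio was 1.36-fold (1.29 to 1.43) for peak against baseline and 0.479-fold (0.447 to 0.513) for resolution against baseline. The second was no longer past 2-fold with the mean of per-cell CPM (log2 -0.68) or equal cluster weight (log2 -0.47). Basophil-like cells, which occurred only in the peak library, had 1988 CPM and Nlrp3 in 85.7% of 63 thinned cells, against 363 CPM and 43.1% in the Cxcl3 and Cxcl2 cluster, the next highest. Il1b in basophil-like cells was 2132 CPM with 47.6% of cells positive. Il1rn had 6 UMIs in 2 of the 63 basophil-like cells (20.02 CPM) and none after thinning. Nlrp3 was found more often in cells with Il1b than in cells without it in each library: 24.5% against 11.6% at baseline, 32.1% against 13.5% at peak, 29.5% against 6.23% at plateau and 24.4% against 6.28% at resolution, after thinning. Casp1, the protease, varied least between libraries, with 49.7 CPM at baseline, 43.8 at peak, 35.1 at plateau and 42.0 at resolution. Osteoclast-like cells, which lie low for Il1b and Nlrp3, held 33.6% of Casp1 UMIs at plateau at 31.1 CPM, below the 35.1 CPM of that library. They were 14.25% of plateau cells and deep, with a median of 25864 UMIs per cell over all libraries. The share is thus no sign of a high Casp1 level.

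The other genes of the pathway were read from 4 lists. Of 14 genes of inflammasomes and cytokine release, all compared, 1 was at least 2-fold higher at peak than at baseline and 1 lower, with a median log2 ratio of -0.12. They were Mefv, which encodes pyrin (71.3 CPM at peak, 33.5 at baseline), and Nek7, a partner of NLRP3 (33.6 CPM at peak, 69.6 at baseline). Over all genes 8.52% were higher and 12.6% lower in that comparison, with a median of -0.13, so this list was near all genes. The most abundant of this list, Ninj1, a mediator of membrane rupture, and Pycard, the adaptor ASC, did not pass 2-fold in any comparison, and Pycard had 219, 279, 181 and 147 CPM from baseline to resolution. At resolution 3 were at least 2-fold higher than at plateau and 2 lower, the largest difference being that of Gsdme, a gasdermin, with 26.2 CPM at resolution and 5.78 CPM at plateau. Over all genes 13.4% were higher and 10.5% lower in that comparison.

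Of 12 genes of IL-1 and Toll receptor signalling, Nfkbia, the NF-κB inhibitor that NF-κB itself induces, was the 1 past 2-fold at peak against baseline, with 1231 CPM at peak and 498 CPM at baseline. Over all genes 8.52% were higher and 12.6% lower in that comparison. Nfkbia had 1243 CPM at plateau and 1082 CPM at resolution, where Il1b stood below baseline. Ikbkb, a kinase of that inhibitor, had 180, 137, 87.6 and 160 CPM from baseline to resolution. Among 6 other ligands only Il33 and Il1f9 had enough UMIs, and Il33, an alarmin of stromal cells, had 10.99 CPM at peak and 2.01 CPM at baseline. Il1f9, an older symbol of an IL-36 cytokine, had 0.426 CPM at peak and 0.920 CPM at baseline, on 25 and 11 UMIs. Among 7 other receptors, 6 had enough UMIs, and 5 of those were at least 2-fold higher at resolution than at plateau, as were 13.4% of all genes. Il1rl1, the IL-33 receptor, had 18.8 CPM at resolution and 8.72 at plateau, and Il18r1 had 4.36 and 0.135, the plateau value on 4 UMIs. Il1r1, the signalling IL-1 receptor, had 4.43, 12.5, 11.2 and 12.3 CPM from baseline to resolution.

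Cells were split by the ratio of their CD45.1 and CD45.2 antibody UMIs into donor-type CD45.1 and recipient-type CD45.2 cells. There were 808 CD45.1 and 190 CD45.2 cells at baseline, 5576 and 219 at peak, 2402 and 239 at plateau, and 3249 and 730 at resolution. The 4 libraries served as replicates in an edgeR quasi-likelihood fit with the library as a block, so that the test asks for a difference shared by the stages and its error is the spread between libraries of different stages. Of 9 members 7 were higher in CD45.1 cells at a Benjamini-Hochberg adjusted p under 0.05 and none lower. Of 11498 genes tested, 9.95% were higher and 9.85% lower, 19.8% in all. The median log2 ratio was 2.01 over the members and -0.02 over all genes.

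Il1b had 1149, 3121, 2003 and 676 CPM in CD45.1 cells from baseline to resolution, against 122, 340, 299 and 221 CPM in CD45.2 cells. The CD45.1 value was higher in 4 of 4 libraries, a count that was not taken over all genes. The fitted log2 ratio was 2.92 ± 0.34 (SE, edgeR adjusted p = 0.00425). Within libraries the ratio was 9.40-fold at baseline (8.23 to 10.8), 9.19-fold at peak (8.68 to 9.74), 6.70-fold at plateau (6.297 to 7.13) and 3.06-fold at resolution (2.87 to 3.27), lowest in the resolution library.

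Il1rn had 9.34, 164, 124 and 7.66 CPM in CD45.1 cells, against 2.74, 31.7, 25.5 and 3.50 CPM in CD45.2 cells, again higher in 4 of 4 libraries. Its log2 ratio was 2.22 ± 0.26 (SE, edgeR adjusted p = 0.00406). The stage course of Il1rn was thus seen in both kinds of cell, with both arthritis libraries above both others. Il1r2 had 28.1, 99.6, 31.5 and 29.98 CPM in CD45.1 cells, against 6.03, 19.6, 2.90 and 8.32 CPM in CD45.2 cells, with a log2 ratio of 2.61 ± 0.25 (SE, edgeR adjusted p = 0.00301). Nlrp3 had 156, 195, 93.4 and 70.6 CPM in CD45.1 cells, against 27.4, 39.5, 16.0 and 32.2 CPM in CD45.2 cells, with a log2 ratio of 2.33 ± 0.29 (SE, edgeR adjusted p = 0.00458). These 4 genes kept an adjusted p under 0.05 whichever library was left out.

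Il1a, Il18 and Il1rap lay just inside the threshold. Il1a had 3.97, 17.01, 17.3 and 26.8 CPM in CD45.1 cells, against 3.29, 2.31, 1.16 and 16.4 CPM in CD45.2 cells, with a log2 ratio of 2.01 ± 0.56 (SE, edgeR adjusted p = 0.0496). Il18 had 23.8, 62.2, 21.5 and 35.9 CPM against 24.7, 16.7, 12.2 and 20.4 CPM, a log2 ratio of 1.10 ± 0.30 (SE, edgeR adjusted p = 0.0469), and was not higher in CD45.1 cells at baseline. Il1rap had 6.87, 16.3, 10.2 and 7.92 CPM against 4.93, 6.63, 5.22 and 6.13 CPM, a log2 ratio of 1.01 ± 0.25 (SE, edgeR adjusted p = 0.0359). Leaving out a library took each of them over 0.05 in 3 of 4 cases: Il1a to 0.0612 without baseline, 0.155 without peak and 0.0953 without plateau by edgeR. Il1rap went to 0.0640, 0.123 and 0.0928 in the same cases, and Il18 to 0.0774 without peak, 0.0815 without plateau and 0.0873 without resolution by edgeR. With a stricter antibody ratio of 2 none of the 3 passed, and without barcodes carrying both antibodies Il1a and Il18 did not. Casp1, with a log2 ratio of 0.39 ± 0.16 (SE, edgeR adjusted p = 0.137), and Il18bp, with 0.51 ± 0.48 (SE, edgeR adjusted p = 0.477), did not pass the test.

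**Figure D5:**
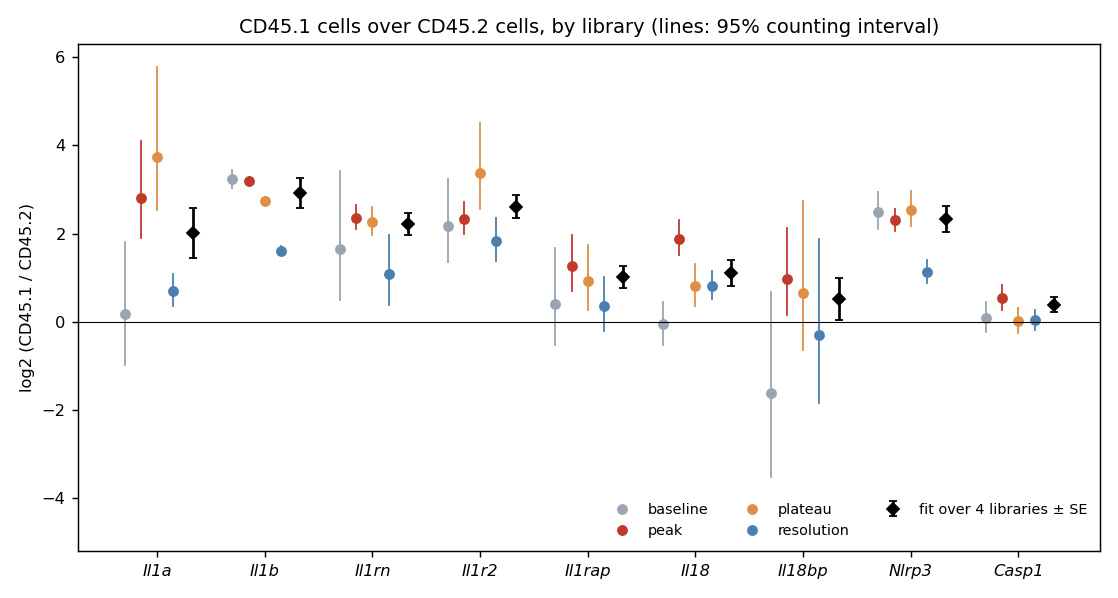
log2 ratio of CD45.1 over CD45.2 cells for each gene in each library (circles, with 95% counting intervals) and in the fit over the 4 libraries (diamonds, ± SE). Il1b, Il1rn, Il1r2 and Nlrp3 lie above 0 in every library, Il18 is at -0.06 at baseline, and Casp1 lies near 0.

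The CD45.1 and CD45.2 cells were not the same mix of cell types. At peak the Cxcl3 and Cxcl2 cluster made up 16.9% of CD45.1 cells and 2.28% of CD45.2 cells, and at baseline Vsig4 and Timd4 tissue macrophage-like cells made up 0.495% of CD45.1 cells and 56.3% of CD45.2 cells. The split used antibody counts alone, and fibroblast-like cells fell into both groups. At plateau Prg4 fibroblast-like cells made up 2.08% of CD45.1 cells and 15.9% of CD45.2 cells. A shallow cluster led by Coq8a and Tcirg1 (median 682 UMIs) made up 2.21% and 11.3% there. With the 6 monocyte-like and tissue macrophage-like clusters alone, Il1b, Il1rn, Il1r2, Nlrp3 and Il1rap passed the edgeR test, and Il1a and Il18 did not (adjusted p = 0.148 and 0.0800). The mix also differed among these 6 clusters. At baseline Serpinb2 nonclassical monocyte-like cells made up 45.7% of CD45.1 cells and 3.16% of CD45.2 cells. This subset therefore does not hold the mix of types equal. Inside a cluster of a library with at least 20 cells and enough UMIs of each variant, Il1b was higher in CD45.1 cells in 8 of 10 pairs, with an interval clear of equal levels in 5, and lower beyond it in 1. The median log2 ratio of those 10 pairs was 0.55. The pair that was lower beyond the interval was the Aqp1 and Fxyd2 cluster at baseline, on 14 UMIs in CD45.1 and 96 in CD45.2 cells. The other genes had fewer such pairs: Il1rn was higher in 2 of 4 and lower beyond the interval in 1, Nlrp3 higher in 3 of 5 and lower beyond it in 1, and Il1r2 higher in 3 of 4. Il18 was higher in 3 of 4 pairs, Il1rap in 2 of 2, and Il1a in 1 of 2 with the other lower beyond the interval. In the Rnase2a and Mmp12 cluster at resolution, Il1b had 612 CPM in CD45.1 cells and 420 CPM in CD45.2 cells, while Il1a had 61.9 CPM in CD45.1 cells and 101 CPM in CD45.2 cells. How much of the library-wide difference comes from the mix of types was not tested.

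Il1b and Il1rn together were found in 1.04%, 15.7%, 14.7% and 0.659% of thinned CD45.1 cells from baseline to resolution, against 0%, 3.63%, 1.64% and 0.154% of CD45.2 cells. The baseline value is 0 of 176 thinned cells, and before thinning the 190 CD45.2 cells held 5 Il1rn and 223 Il1b UMIs. At this depth a share of cells with both UMIs of up to 2.07% would go unseen. Per 1000 Il1b UMIs, CD45.2 cells held more Il1rn than CD45.1 cells at peak, 93.4 (76.1 to 114) against 52.5 (51.4 to 53.7), and at plateau, 85.4 (67.9 to 106) against 61.8 (59.6 to 64.2). At baseline (22.4 against 8.13) and at resolution (15.9 against 11.3) the intervals of CD45.2 and CD45.1 cells overlapped. CD45.2 cells thus had less of both RNAs, with more antagonist per agonist UMI at peak and plateau. The mix of types differed here too. Osteoclast-like cells, with 196 at peak, were 20.55% of CD45.2 and 3.14% of CD45.1 cells in that library. Inside them at peak, CD45.1 cells held 106 Il1rn and 506 Il1b UMIs, and CD45.2 cells 8 and 91. At plateau the counts were 88 and 724 against 37 and 133, with the order turned. How much of the difference comes from the mix was not tested.

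Of the other pathway genes, 3 of 14 inflammasome genes were higher in CD45.1 cells and 1 lower by edgeR, against 9.95% and 9.85% of all genes tested. Mefv had the largest log2 ratio of these, 3.03 ± 0.24 (SE, edgeR adjusted p = 0.00271), and P2rx7, an ATP-gated channel that triggers NLRP3, was the lower one at -0.72 ± 0.19 (SE, edgeR adjusted p = 0.0409). Of 12 signalling genes 5 were higher, beside the same 9.95% of all genes, among them Myd88, the adaptor of the IL-1 receptor, at 1.14 ± 0.22 (SE, edgeR adjusted p = 0.0157). Of 5 other receptors tested, Il18rap, a chain of the IL-18 receptor, was the 1 that passed, at 2.46 ± 0.36 (SE, edgeR adjusted p = 0.00677).

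Genes with the most similar pattern were ranked over 39 sums of a cluster in a library, among 7689 genes, by Pearson's r of log2(CPM + 1). These sums share libraries and depth, so r is a description. Runx3 (0.93), Mefv (0.93), Gpr35 (0.92), Plbd1 (0.92) and Mpeg1 (0.91) were most like Il1b. Clec4n (0.87), Rhov (0.86), Smox (0.85), Fcgr1 (0.82) and Tmem189 (0.81) were most like Il1rn, and the r between Il1b and Il1rn themselves was 0.64. Il1r2 was most like Ms4a4c (0.76), Itga1 (0.76), B3gnt5 (0.74), Lmnb1 (0.74) and Smim3 (0.74). Il18 was most like Cdkn1a (0.81), Lamp2 (0.78), Mcub (0.78), Eps8 (0.77) and Cib2 (0.76). Among the members, Il1b was closest to Nlrp3 with an r of 0.87.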

How the data were processed

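The deposited matrices hold raw UMI counts per gene and antibody in each cell barcode, not normalized by the authors. Cell Ranger 6.1.2 made them on mm10, per the file headers and processing notes of the submitters, which also name Seurat 4.4.0 for no given step. Barcodes needed 300 genes and no more than 10% of UMIs from mitochondrial genes. Levels are summed counts per 1000000 UMIs (CPM). Log2 ratios between stages have 0.5 counts added, and fold ratios do not. Fold ratios have an exact 95% Poisson interval. The 2-fold threshold was set on the log2 ratio, for genes with at least 30 UMIs. CD45.1 and CD45.2 cells had log2((CD45.1 + 1)/(CD45.2 + 1)) antibody UMIs of at least 1 or at most -1. Their summed counts per library were tested with edgeR 4.0.16 in R 4.3.3 (filterByExpr, TMM, quasi-likelihood, library block, Benjamini-Hochberg over all genes tested). The SE was derived from the log2 ratio and its F statistic. Clusters came from Leiden clustering at resolution 0.8 in scanpy 1.11.5 on 2000 variable genes, without the 9 genes. No doublet caller was run; an alternative removed barcodes with 10 or more UMIs of CD45.1 and of CD45.2 antibody. Shares of cells were taken after thinning each cell to 2000 UMIs. Start regions came from RefSeq (GRCm38.p6), in which all 9 genes were found. The edgeR fit of CD45.1 against CD45.2 cells was tested on simulated counts, with a single spread for all genes and the same ratio in all libraries. In the data the ratios differed between libraries.

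The 9 genes and the lists were chosen with earlier results of these data known. Named genes were all 9 members, the 2 most abundant and the 2 with the largest stage ratio of each other list, with a few more listed genes chosen after their values were seen, and the 5 genes most like Il1b, Il1rn, Il1r2 and Il18. Alternatives covered the cell filters, scaling (TMM, mean of per-cell CPM, equal weight to each cluster), thinning depth, the antibody ratio, DESeq2 1.42.0, the filter on low counts, the block and each left-out library. Counting intervals do not cover differences between animals.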

Additional observations from a re-analysis of the deposited data

Results flagged for a closer look

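Il18 had a log2 ratio of CD45.1 over CD45.2 cells of -0.0627 at baseline and positive values in the 3 later libraries. The baseline ratio was 0.966-fold with a counting interval that spans equal levels (0.699 to 1.36), so it shows no opposite direction. Il1b in the Aqp1 and Fxyd2 tissue macrophage-like cells had a log2 ratio of CD45.1 over CD45.2 cells of -2.29 at baseline (30 CD45.1 and 44 CD45.2 cells), 1.34 at plateau (35 and 39 cells) and 1.72 at resolution (838 and 254 cells). The baseline value rests on 14 UMIs in CD45.1 and 96 in CD45.2 cells. Of all 190 baseline CD45.2 cells, 19 held Il1b, and 2 of these held 49.8% of its 223 UMIs. A counting interval does not cover such concentration in few cells. Il1rn in osteoclast-like cells had a log2 ratio of 1.90 at peak (175 CD45.1 and 45 CD45.2 cells) and -1.15 at plateau (336 and 55 cells). Each of these differences between stages rests on 1 library per stage and was not tested.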

How the results depend on the processing

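No paired analysis was possible between the stages because each has 1 library with no shared animals in the labels. For CD45.1 against CD45.2 cells the library is the block: without it edgeR called 513 genes in place of 2276, and Il1a, Il1rn, Il1r2, Il1rap and Il18 no longer passed. Leaving out each library gave 936 (without peak) to 1935 genes, with 1471 without baseline. DESeq2 called 2876 genes and kept all 7 members. Under equal cluster weight the members past 2-fold were 0 at plateau against peak in place of 4, and 1 at resolution against baseline in place of 2, as also with the mean of per-cell CPM. Over all genes equal weight left 978 past 2-fold in place of 2717 and 1050 in place of 2201 in these comparisons. A 1.5-fold threshold gave 5 members at resolution against plateau in place of 3. Cells with both Il1b and Il1rn, from baseline to resolution, were 0.390%, 8.35%, 8.47% and 0.248% when thinned to 1000 UMIs, 5.32%, 31.9%, 23.6% and 1.28% unthinned, and 0.101%, 5.55%, 6.07% and 0.0990% with at least 2 UMIs of each gene; these follow from the depth or count asked for. No called stage ratio changed sign. Of the single stage ratios of members 183 moved by less than counting error and 69 by more; of the variant ratios 84 kept their side of the threshold and 21 lost it. Depth limits Il18bp most, with 12 UMIs at baseline and 22 at resolution. The cause of the other changes was not tested.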
